A study of Mus musculus with 12 samples.

Results

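Loss of S100a9 was examined in CD8a cells of the spleens of unstressed mice. CD8a cells are the T lymphocytes that carry the CD8 coreceptor and mature into cytotoxic cells. The authors listed 303 genes for the comparison of 3 S100a9-/- C57Bl6/J control mice with 3 wild-type C57Bl6/J control mice, and all 303 were taken, of 2851 genes listed for any CD8a comparison. The other 6 mice, 3 S100a9-/- and 3 wild type of the same strain names, went through repeated social defeat, a psychosocial stress, for 10 days, and spleens of all 12 mice were taken on day 12 after 1 day of behaviour tests. The sources used here do not say the age or sex of the mice, how the S100a9 allele was made, or whether knockout and wild-type mice were littermates.

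A level here is the authors' average over the CD8a cells of 1 mouse, on a scale on which the listed genes of an unstressed mouse summed to 7419 to 7615. It moves alike when fewer cells carry a transcript and when each cell carries less of it. Log2 changes are knockout minus wild type on log2(level + 0.1) with their standard error, tested with limma, and a gene was called at a Benjamini-Hochberg adjusted p under 0.05. The authors listed the 303 genes for this comparison by a rule not stated in the sources used here. If they chose them on these same mice, the adjusted p over 303 genes need not hold false calls to that share, so the count from the same test over all 2851 genes is given beside it.

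S100A9 is a small calcium-binding protein that pairs with S100A8 to form calprotectin, which fills the cytoplasm of neutrophils and is released as an alarm signal that other cells sense through pattern-recognition receptors. T cells make little of either protein. Resting CD8 T cells respond to outside signals with well-known transcript programs. Interferons raise antiviral genes through the interferon-stimulated response element, glucocorticoids raise genes such as Tsc22d3, and antigen raises effector genes such as Ccl5.

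The cells bore the markers of their label. Cd8a, a chain of the CD8 coreceptor, was 5.27, 4.87 and 4.35 in knockout mice 1, 2 and 3, against 4.86, 4.45 and 4.63 in wild-type mice. Cd8b1, Cd3d and Trbc2 were also present in every mouse, and the 4 markers summed to 35.3 to 39.8 in knockout mice and 36.4 to 38.7 in wild-type mice. Cd3d and Trbc2 are not particular to CD8 cells, and Trbc2 averaged 17.9 in CD4 cells of knockout mice and 17.2 in those of wild-type mice. The B cell marker Ighm was near the level of Cd8a, at 4.20, 4.12 and 4.94 in knockout mice, against 4.21, 4.10 and 3.42 in wild-type mice. Cd4 and Cd40lg were not among the listed CD8a genes and were not analysed here.

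The targeted gene itself was near 0 in both genotypes. S100a9 (chromosome 3, 90692632 to 90695721, minus strand, mm10) had a level of 0.0461, 0.0322 and 0.0307 in the knockout mice, against 0.00415, 0.0337 and 0.0146 in the wild-type mice. The groups overlapped, and its change of 0.22 ± 0.11 was not called over all listed genes (limma, adjusted p = 0.410). Because the kit reads transcript ends and the labels do not name the deleted stretch, this level is no check of the genotype labels.

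A pair of nearly identical genes separated the genotypes most widely. mt-Nd3 (chromosome M, 9459 to 9806, plus strand) encodes a subunit of complex I of the respiratory chain. Gm28438 (chromosome 1, 24612775 to 24613119, minus strand) is annotated as an unprocessed pseudogene in the nuclear genome. Over 345 aligned bases they differ at 1, written T3C from mt-Nd3 to Gm28438 with positions counted from the first base of each transcript. This is position 9461 of chromosome M. The first 60 bases of each GENCODE M21 transcript are shown because they hold the only base that differs in the aligned stretch, which is in capitals.
Gm28438: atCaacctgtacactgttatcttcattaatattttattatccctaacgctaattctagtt
mt-Nd3: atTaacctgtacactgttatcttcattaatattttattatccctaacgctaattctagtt

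mt-Nd3 had a level of 0.00434, 0.00675 and 0.0111 in knockout mice, against 2.44, 3.02 and 2.97 in wild-type mice. Gm28438 had the reverse order, at 1.40, 1.09 and 1.84 in knockout mice, against 0.00474, 0.00980 and 0 in wild-type mice. Each gene was near 0 in one genotype and plain in the other, with no overlap. The log2 change was -4.75 ± 0.11 for mt-Nd3 (limma, adjusted p = 4.90e-07) and 3.85 ± 0.18 for Gm28438 (adjusted p = 2.48e-05). The sum of both was 1.45 ± 0.381 in knockout mice and 2.81 ± 0.321 in wild-type mice (SD, n = 3). Genes this alike cannot be counted apart with certainty, and in these groups the S100a9 genotype and a base difference in mt-Nd3 cannot be told apart.

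Among mitochondrially encoded genes mt-Nd3 stood apart. Of 8 in the table, mt-Nd3 included, 5 lay above 0 and 3 below. mt-Cytb, the cytochrome b gene of complex III, was 55.8, 50.8 and 55.1 in knockout mice, against 48.5, 44.2 and 45.1 in wild-type mice. Its mice did not overlap, but its change of 0.23 ± 0.06 was not called (limma, adjusted p = 0.0593). mt-Atp6, a subunit of ATP synthase, was likewise higher in every knockout mouse and not called (0.53 ± 0.18, adjusted p = 0.0699), and the ribosomal RNAs mt-Rnr1 and mt-Rnr2 overlapped. With levels centred on each mouse's median over the table, 2 of the 8 lay above 0.

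A second copy gene stood beside the targeted locus. Gm19739 (chromosome 3, 90651714 to 90651866, minus strand), the table gene nearest to S100a9, lies 42.4 kb from it between the midpoints. It had a level of 0.0766, 0.0658 and 0.0871 in knockout mice, against 0.00146, 0 and 0 in wild-type mice. All 3 knockout mice were far above all wild-type mice, and the gene was called (log2 change 0.81 ± 0.08, limma adjusted p = 0.00121; 0.000540 over all listed genes). The gene aligns over its whole length to Rpl39, which encodes a protein of the large ribosomal subunit, with 6 differing bases (96.1% identity). Both stretches are shown with those bases in capitals, since reads with few of them could be assigned to either gene.
Gm19739: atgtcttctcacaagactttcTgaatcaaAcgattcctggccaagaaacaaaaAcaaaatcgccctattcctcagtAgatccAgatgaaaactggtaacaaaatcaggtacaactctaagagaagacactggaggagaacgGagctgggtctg
Rpl39: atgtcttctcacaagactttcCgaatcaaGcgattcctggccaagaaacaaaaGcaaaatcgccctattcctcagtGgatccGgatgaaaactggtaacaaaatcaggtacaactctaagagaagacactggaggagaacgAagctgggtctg

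Within 1 Mb of S100a9 lay 3 of the 301 table genes with a position (0.997%), against 14 of the 2838 listed genes with one (0.493%). Within 10 Mb lay the same 3 table genes (0.997%), against 59 listed genes (2.08%). The other 2 were Rps27, a ribosomal protein gene 481 kb away, and Tpm3, a tropomyosin gene 607 kb away. Rps27 was 39.1, 44.9 and 41.3 in knockout mice, against 48.6, 56.8 and 66.0 in wild-type mice, and Tpm3 was 4.27, 4.08 and 4.06 in knockout mice, against 3.32, 3.41 and 3.69 in wild-type mice. Neither pair of groups overlapped and neither gene was called (-0.44 ± 0.12 with adjusted p = 0.0557; 0.25 ± 0.06 with adjusted p = 0.0550; limma). S100a8, 24.7 kb from S100a9, was not in the table, and its change was not called over all listed genes (0.39 ± 0.13, adjusted p = 0.195). The next 5 table genes by distance on the chromosome, Mbnl1, Prss12, Gm42826, Gm6204 and Rpl34, were not called either. Mbnl1 lay above 0 (below with centred levels) and the others below.

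Across the table most differences were small. Of the 303 genes 169 lay above 0 and 134 below, with a median log2 change of 0.09, against 0.04 over all listed genes. The median size of the change was 0.25, 262 genes changed by less than 0.5 and 8 by more than 1. The 3 knockout and 3 wild-type mice did not overlap for 186 genes (61.4% of the table), 108 higher in knockout (35.6%) and 78 lower (25.7%). Over all 2851 genes the share was 19.0%, and it was 13.9% outside the table. These shares describe genes listed for this same contrast and support nothing further.

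The test called 25 genes (8.25%), 12 higher in knockout (3.96%) and 13 lower (4.29%), and 167 had an unadjusted p under 0.05. With levels centred on each mouse's median over the table, which moved the median change to -0.10, the split was 7 higher and 119 lower, so directions of small changes depend on the scale. Over all 2851 listed genes 22 were called (0.772%), 20 of them among the 25. With levels centred on each mouse's median over all 2851 listed genes, the calls over those genes went from 22 to 19. Without centring, a single gene outside the table was called (0.0392%), Vmp1, named after its value was seen. Leaving out 1 mouse at a time gave 4 to 15 genes called higher and 4 to 32 called lower. The counts were 15 and 32 without wild-type mouse 1, 4 and 6 without knockout mouse 2, 5 and 4 without wild-type mouse 2, and 6 and 8 without wild-type mouse 3. mt-Nd3, Gm28438, Gm19739, Rab4a, Gm49980, Rell1 and 5830416I19Rik were called in every alternative fit that included them.

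**Figure D1:**
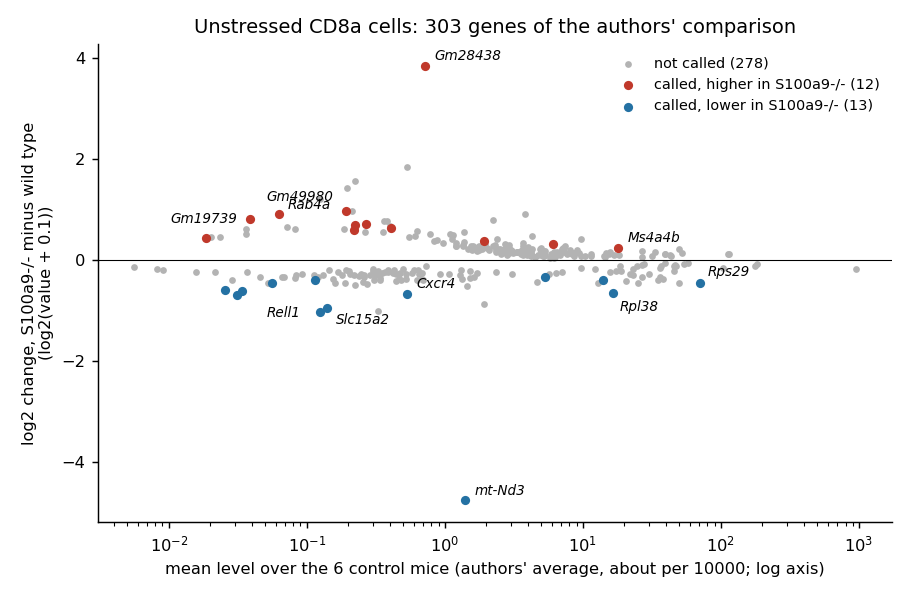
Log2 change between S100a9-/- and wild-type control mice (vertical axis) against the mean level over the 6 control mice (horizontal axis, log scale), for the 303 genes in CD8a cells, with 12 called higher genes in red and 13 called lower in blue. mt-Nd3 at -4.75 and Gm28438 at 3.85 lie far from the rest, and most other genes lie within 0.5 of 0.

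Rab4a and Slc35g1 were called higher in knockout mice. Rab4a encodes a small GTPase of early endosomes that returns internalised receptors to the surface. Its level was 0.116, 0.106 and 0.116 in knockout mice, against 0.0167, 0.0131 and 0.0102 in wild-type mice. It was low in both genotypes and higher in every knockout mouse, and the change of 0.91 ± 0.07 was called (limma, adjusted p = 0.000580). Slc35g1, a member of a family of nucleotide-sugar transporters and their relatives, was 0.354, 0.375 and 0.336 in knockout mice, against 0.208, 0.187 and 0.141 in wild-type mice. The groups were well apart, with a change of 0.72 ± 0.12 (adjusted p = 0.0148), which missed the threshold without knockout mouse 2 or without wild-type mouse 2.

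Rell1, Slc15a2 and Synj2 were called lower in knockout mice. Rell1, which encodes a membrane protein related to the TNF receptor family member RELT, was 0.0628, 0.0416 and 0.0416 in knockout mice, against 0.236, 0.180 and 0.191 in wild-type mice. Every knockout mouse was well under every wild-type mouse, and the gene was called (-1.02 ± 0.11, limma, adjusted p = 0.00157). Slc15a2 encodes a proton-coupled transporter of short peptides. It was 0.0275, 0.123 and 0.0474 in knockout mice, against 0.182, 0.221 and 0.233 in wild-type mice (-0.95 ± 0.21, adjusted p = 0.0370). Knockout mouse 2 came nearest to the wild-type mice, and the call was lost without knockout mouse 1 or 3 or wild-type mouse 2 or 3. Synj2, a phosphoinositide phosphatase, had a change of -0.61 ± 0.09 (adjusted p = 0.0130), at 0.00579 ± 0.00403 in knockout mice and 0.0620 ± 0.0160 in wild-type mice (SD, n = 3).

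**Figure D2:**
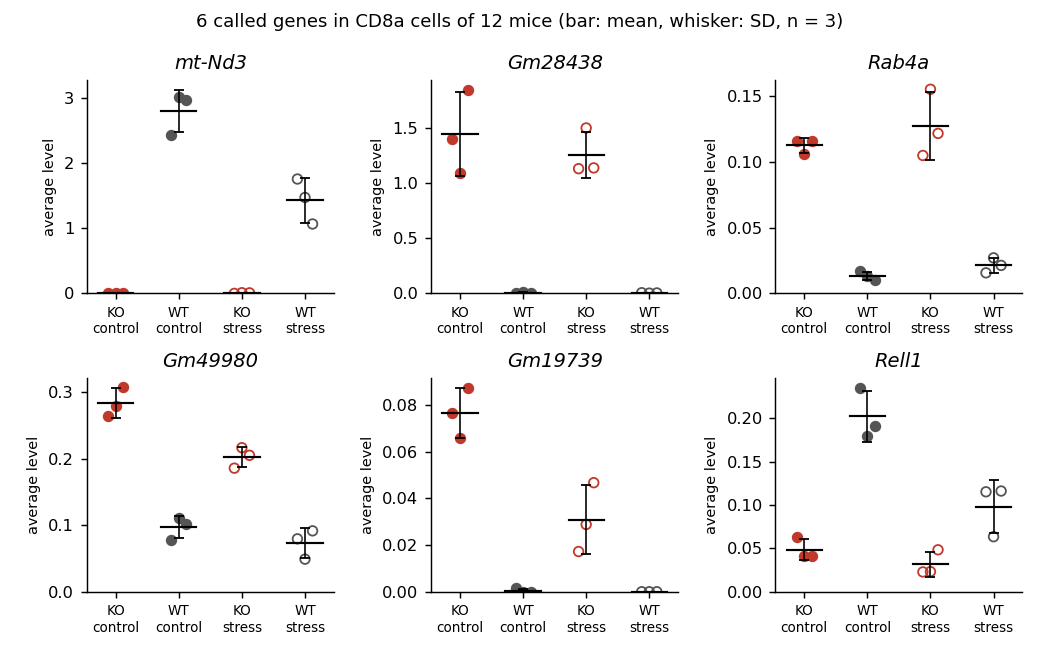
Level in CD8a cells of each of the 12 mice for 6 called genes, in knockout (KO, red) and wild-type (WT, grey) mice, filled for unstressed controls and open for stressed mice, with the mean and SD of 3 mice. Each gene's 3 KO control mice lie wholly above or wholly below its 3 WT control mice, and the same holds in the stressed mice.

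Some called genes lie near each other. Rell1 and the predicted gene 5830416I19Rik lie 76.1 kb apart on chromosome 5. The predicted gene was 0.00163, 0 and 0 in knockout mice, against 0.0653, 0.0629 and 0.0567 in wild-type mice, so that it was listed at 0 in 2 of 3 knockout mice (-0.68 ± 0.07, limma, adjusted p = 0.00128). On chromosome 19 the called genes Ms4a4b, BE692007 and Gm8369 sit side by side with Ms4a6b, which was not called. Ms4a4b encodes a membrane-spanning protein of T cells. It was 20.0, 19.2 and 19.7 in knockout mice, against 16.3, 16.9 and 16.4 in wild-type mice.

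The increase in Ms4a4b was small beside its level but larger than the spread among mice (0.25 ± 0.04, adjusted p = 0.0182), and it was not called over all listed genes (adjusted p = 0.0952). BE692007 was 7.02, 6.82 and 6.43 in knockout mice, against 5.25, 5.31 and 5.53 in wild-type mice (0.33 ± 0.05, adjusted p = 0.0148). Gm8369 was 2.20 ± 0.104 in knockout mice and 1.68 ± 0.0847 in wild-type mice (SD, n = 3; 0.37 ± 0.07, adjusted p = 0.0296). All 3 kept their direction but were not called with centred levels. Ms4a4b, BE692007, Gm8369 and Ms4a6b do not overlap in the annotation, with gaps of 3.111, 1.36 and 3.935 kb between neighbours. How the authors' counting used strand is not given in the sources used here, and whether these genes share reads was not tested.

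Gene position was tallied for the rest of the table, a pattern chosen after the values were seen. Outside the mitochondrial genome, 37 pairs of table genes lay within 200 kb of each other, and 26 of them (70.3%) had the same direction, against 53.5% of the 2467 such pairs among all listed genes. Some of these pairs, such as the haemoglobin genes, are near-identical copies that can share reads. Chromosome 19 held 24 table genes of its 114 listed genes (21.1%), against 10.6% of listed genes in all. It held 5 called genes (8.25% of the table was called), all higher in knockout: Ms4a4b, BE692007, Gm8369, Gm6545 and Slc35g1. Ms4a4b, BE692007 and Gm8369 are the neighbours above, which were not called with centred levels.

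Of the genes with known T cell roles, Cxcr4 and Dapl1 were called lower. Cxcr4 is the receptor for the chemokine CXCL12 and guides lymphocytes to the bone marrow. It was 0.324, 0.496 and 0.362 in knockout mice, against 0.731, 0.656 and 0.641 in wild-type mice (-0.66 ± 0.14, limma, adjusted p = 0.0370). The groups did not overlap, but the call was lost in 8 of 16 alternative fits. All 3 glucocorticoid targets of the table, Cxcr4 among them, lay lower in every knockout mouse (25.7% of the table and 6.17% of all listed genes did not overlap in this direction). Tsc22d3, which encodes the glucocorticoid-induced leucine zipper protein, was 0.935, 1.43 and 1.16 in knockout mice, against 1.69, 1.47 and 1.94 in wild-type mice (-0.51 ± 0.16, adjusted p = 0.0691). Ddit4, an inhibitor of mTOR signalling, was 0.583 ± 0.129 in knockout mice and 0.774 ± 0.0414 in wild-type mice (SD, n = 3; -0.37 ± 0.14, adjusted p = 0.0807). The 6 listed glucocorticoid targets had a median change of -0.22, and their summed levels differed by -0.937 on average. The sums overlapped, with knockout mice 2 and 3 above wild-type mouse 3 (two-sided exact permutation p = 0.4).

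Dapl1, a death-associated protein-like gene abundant in resting T cells, was 4.77, 4.89 and 4.45 in knockout mice, against 5.86, 5.91 and 6.12 in wild-type mice. Each group was tight, and the change of -0.34 ± 0.06 was called (limma, adjusted p = 0.0148). The call was lost in 4 of 16 alternative fits: with the mouse number as a block, with all 4 groups in 1 fit, without wild-type mouse 2 and without wild-type mouse 3 (adjusted p from 0.00159 to 0.0678 over the 16). Of 7 naive and quiescence genes 5 lay above 0 and 2 below, and Dapl1 alone was called (8.25% of the table was). With centred levels 1 lay above 0. Bcl2, which protects cells from apoptosis, was 4.35, 3.67 and 4.04 in knockout mice, against 3.28, 3.55 and 3.09 in wild-type mice (0.27 ± 0.08, adjusted p = 0.0670). Lef1, a transcription factor of naive cells, overlapped between the genotypes. Among genes outside these roles, G0s2, an inhibitor of the lipase ATGL, was called higher (0.61 ± 0.14, adjusted p = 0.0482) and Alkbh7, a mitochondrial dioxygenase, lower (-0.39 ± 0.08, adjusted p = 0.0335), and neither was called over all listed genes.

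Predicted genes were among those called. Of the 31 predicted genes and clone names listed for this comparison, 10 lay above 0 and 21 below, and 5 were called higher (3.96% of the table) and 2 lower (4.29% of the table). Gm49980, which has no match in the annotation used, was 0.265, 0.279 and 0.309 in knockout mice, against 0.0785, 0.110 and 0.102 in wild-type mice (0.97 ± 0.10, limma, adjusted p = 0.00157). Dynlt2a2, also unmatched, was 0.516 ± 0.0347 in knockout mice and 0.298 ± 0.0485 in wild-type mice (SD, n = 3; 0.64 ± 0.12, adjusted p = 0.0220). Gm16867 was listed at 0 in 2 of 3 knockout mice and at 0.0654, 0.0348 and 0.0520 in wild-type mice (-0.58 ± 0.09, adjusted p = 0.0143).

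Interferon-response genes lay almost all on the higher side. Of the 25 listed for this comparison, 24 lay above 0, and the knockout mice were all above the wild-type mice for 19 (35.6% of the table and 12.8% of all listed genes did not overlap in this direction). Their median log2 change was 0.46, and with centred levels 22 lay above 0 with a median of 0.27. None of the 25 was called with limma (8.25% of the table was). An unadjusted p under 0.05 held for 15 of them, and for 167 of the 303 table genes. With a pseudocount of 0.01, 2 were called, against 19 higher and 18 lower in the table. With all 4 groups in 1 fit, 12 were called, against 54 higher and 50 lower in the table. Over all 38 listed members, of which these 25 are a part and so still chosen for this contrast, the median was 0.35, against 0.04 for all listed genes. The 38 genes summed to 93.1, 74.0 and 72.8 in knockout mice 1, 2 and 3, against 66.0, 65.6 and 65.1 in wild-type mice. Every knockout mouse was above every wild-type mouse (two-sided exact permutation p = 0.1, the smallest that 3 mice against 3 allow).

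Knockout mouse 1 held much of the difference. Ifit1, which binds foreign RNA, was 1.08, 0.270 and 0.290 in knockout mice, against 0.221, 0.225 and 0.302 in wild-type mice. Ifit3, its partner, was 0.603, 0.199 and 0.175 in knockout mice, against 0.0538, 0.127 and 0.117 in wild-type mice. Knockout mice 2 and 3 were within the wild-type range for Ifit1, and all 3 were above it for Ifit3. The difference of the sums was 14.4 with all mice and 7.87 without knockout mouse 1, and the median change of the 25 genes was then 0.23.

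Samhd1, which depletes nucleotides that viruses need, was 3.26, 2.96 and 2.93 in knockout mice, against 2.59, 2.45 and 2.24 in wild-type mice (0.32 ± 0.08, limma, adjusted p = 0.0522). The lowest knockout mouse was above the highest wild-type mouse. In Irf7, which amplifies interferon production, knockout mouse 1 again stood above the others. It was 0.744, 0.322 and 0.307 in knockout mice, against 0.234, 0.258 and 0.286 in wild-type mice (0.55 ± 0.28, adjusted p = 0.134).

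One member ran the other way. Ifi208, of the DNA-sensing Ifi200 cluster on chromosome 1, was 0.899, 0.739 and 0.816 in knockout mice, against 1.00, 0.911 and 1.14 in wild-type mice (-0.28 ± 0.11). Its relatives Ifi206, Mndal and Ifi203 in the same cluster lay higher in every knockout mouse, at 0.41 ± 0.16, 0.24 ± 0.10 and 0.33 ± 0.08, and none of the 4 was called. These genes are related, and whether reads were assigned to a relative was not tested.

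**Figure D3:**
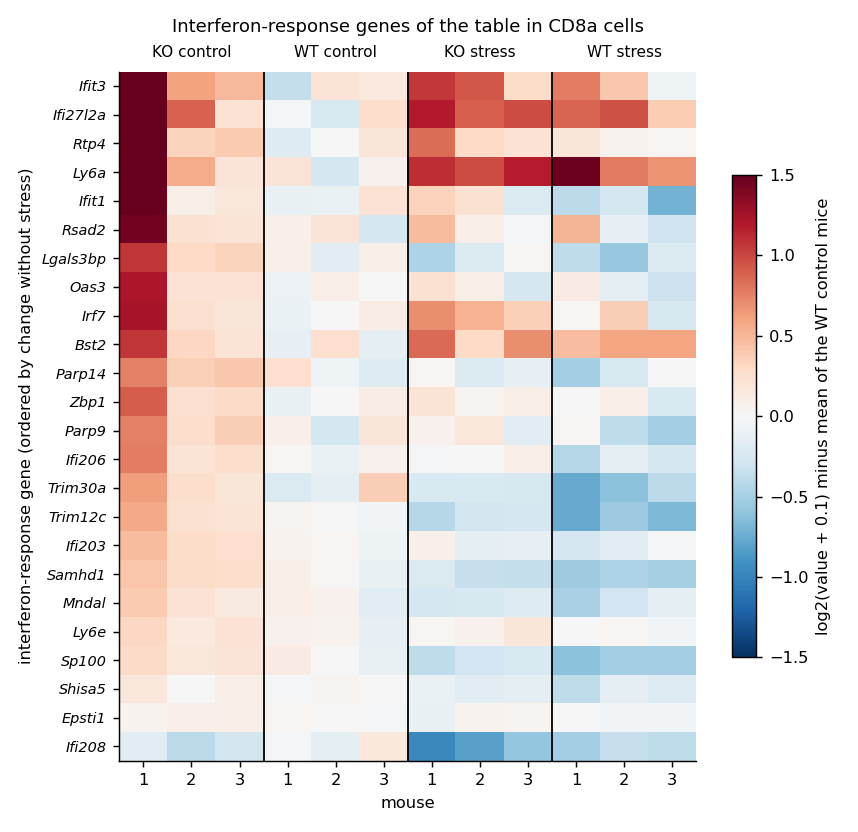
Log2(level + 0.1) of most, not all, of the 25 interferon-response genes of the table in CD8a cells, minus the mean of the 3 WT control mice. Rows are genes ordered by change without stress, and columns are the 12 mice, KO left of WT. KO control mouse 1 is the darkest column, KO control mice 2 and 3 are paler but above 0 in most rows, and Ifi208 at the bottom is below 0 in the KO control mice.

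The promoters of the interferon genes were also read for a motif. The list holds known interferon-response genes, so how often the motif occurs in them does not bear on the knockout. The core of the interferon-stimulated response element, GAAANNGAAA, was sought on both strands from 250 bases before to 50 bases after the start of each gene, in RefSeq promoters on GRCm38.p6. Of the 17 interferon genes of the table with a promoter sequence, 10 held it (58.8%), against 943 of 27025 promoters in all (3.49%). Among other table genes it stood in 3 of 108 above 0 (2.78%) and in 5 of 83 below 0 (6.02%). A match is a string of letters, not a shown binding site. Windows of 50 bases around the first match are printed for the pair above and for the Ifi200 relatives that ran in opposite directions, with every match inside the window in capitals.
Ifit1, chr19:34640765-34640814, plus strand: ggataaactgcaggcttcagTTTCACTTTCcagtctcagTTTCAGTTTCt
Ifit3, chr19:34583353-34583402, plus strand: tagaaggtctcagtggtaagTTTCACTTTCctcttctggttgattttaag
Ifi206, chr1:173491329-173491378, minus strand: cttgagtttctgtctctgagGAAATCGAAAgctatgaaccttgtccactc
Ifi208, chr1:173673587-173673636, plus strand: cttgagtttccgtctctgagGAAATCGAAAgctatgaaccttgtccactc
Mndal, chr1:173880194-173880243, minus strand: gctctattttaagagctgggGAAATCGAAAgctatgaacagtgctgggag

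Ifi206 and Ifi208 thus hold the same 10 letters although their levels lay on opposite sides of wild type. No match was found in this window for Irf7, Samhd1, Sp100, Ifi203, Epsti1, Lgals3bp or Shisa5, and 8 genes had no promoter sequence in the table used.

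Genes of activated and effector T cells leaned the same way without a call. All 7 in the table lay above 0, with a median log2 change of 0.41, and 4 had no overlap (35.6% of the table and 12.8% of all listed genes in this direction). With centred levels 6 lay above 0. Ly6c2, a surface marker of memory CD8 cells, was 5.49, 4.15 and 5.34 in knockout mice, against 3.04, 3.92 and 3.71 in wild-type mice (0.48 ± 0.14, limma, adjusted p = 0.0638). The chemokine Ccl5 was 8.47, 10.1 and 14.8 in knockout mice, against 6.99, 11.4 and 6.66 in wild-type mice, and the groups overlapped (0.41 ± 0.26, adjusted p = 0.190). Ly6a and Ly6e belong to this group and to the interferon group. Over all 28 listed effector genes the sum was 63.2 ± 3.17 in knockout mice and 56.2 ± 5.58 in wild-type mice (SD, n = 3; exact permutation p = 0.3).

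Actin cytoskeleton genes shifted little, and 12 of 13 lay above 0, with a median of 0.13 that turned to -0.068 with centred levels. None was called, and 7 had no overlap, 6 higher and 1 lower (61.4% of the table and 19.0% of all listed genes in either direction). Msn, which links actin to the membrane, was 5.40 ± 0.214 in knockout mice and 4.82 ± 0.180 in wild-type mice (SD, n = 3; 0.16 ± 0.06, limma, adjusted p = 0.0699). Tmsb10, which binds actin monomers, was the exception, at 19.8 ± 0.746 in knockout mice and 23.9 ± 3.00 in wild-type mice (-0.27 ± 0.10, adjusted p = 0.0699).

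Ribosomal protein genes formed the largest group on the lower side. All 86 listed genes had a transcript length, 46 were in the table, and of these 35 lay below 0 and 11 above, with 10 of the lower (25.7% of the table and 6.17% of all listed genes) and 2 of the higher (35.6% of the table and 12.8% of all listed genes) not overlapping. With centred levels all 46 lay below 0. Over all 86 listed genes the median was -0.06. These summed to 2400 ± 99.7 in knockout mice and 2537 ± 98.4 in wild-type mice (SD, n = 3). The sums did not overlap (two-sided exact permutation p = 0.1), but divided by each mouse's total they gave an exact permutation p of 0.5. The called members of the 46 were Rpl38, Rps29 and Rpl35, all parts of the cytosolic ribosome. All 3 were called lower, against 4.29% of the table called lower and 8.25% called in either direction. Rpl38 was 13.6, 11.5 and 13.2 in knockout mice, against 16.7, 20.7 and 23.2 in wild-type mice (-0.64 ± 0.13, limma, adjusted p = 0.0272). Rps29 was 58.8, 59.0 and 60.4 in knockout mice, against 72.7, 79.0 and 94.9 in wild-type mice (-0.46 ± 0.10, adjusted p = 0.0370). The knockout mice were alike for Rps29 while the wild-type mice spread widely. Rpl35 was 12.1 ± 0.728 in knockout mice and 15.9 ± 1.13 in wild-type mice (SD, n = 3; -0.39 ± 0.07, adjusted p = 0.0192). No ribosomal gene was called with the mouse number as a block, nor when knockout mouse 2 or 3 or wild-type mouse 2 or 3 was left out.

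The lowest changes lay among ribosomal genes with short transcripts. For the 22 genes with the shortest transcripts, 345 to 560 bases, the median log2 change was -0.22, and 17 lay below 0. In the 3 groups of 21 or 22 longer genes the medians were -0.03, -0.06 and -0.03. Across the 86 genes, which share libraries and depth, Spearman's rho between length and change was 0.33, given as a description. The shortest 22 summed to 639, 698 and 620 in knockout mice, against 695, 756 and 830 in wild-type mice, with overlap between knockout mouse 2 and wild-type mouse 1 (exact permutation p = 0.2). The longest 22 summed to 735 ± 29.7 in knockout mice and 743 ± 18.7 in wild-type mice (SD, n = 3; exact p = 0.7). Whether length, RNA quality or library preparation has a part in this was not tested.

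The respiratory chain in mitochondria has subunits encoded in the nucleus, several of them small proteins. Of the 5 listed for this comparison 4 lay below 0 with no overlap (25.7% of the table and 6.17% of all listed genes in this direction), and none was called. Ndufb1, a subunit of complex I, was 1.31, 1.33 and 1.31 in knockout mice, against 1.45, 1.80 and 1.92 in wild-type mice (-0.35 ± 0.11, limma, adjusted p = 0.0670). Ndufa3 of complex I, Cox7c of complex IV and Atp5k of ATP synthase had changes of -0.36, -0.28 and -0.29. Cox8a, also of complex IV, was above 0 with no overlap, at 0.10 ± 0.06. Over all 76 listed genes of this kind the median was -0.01.

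**Figure D4:**
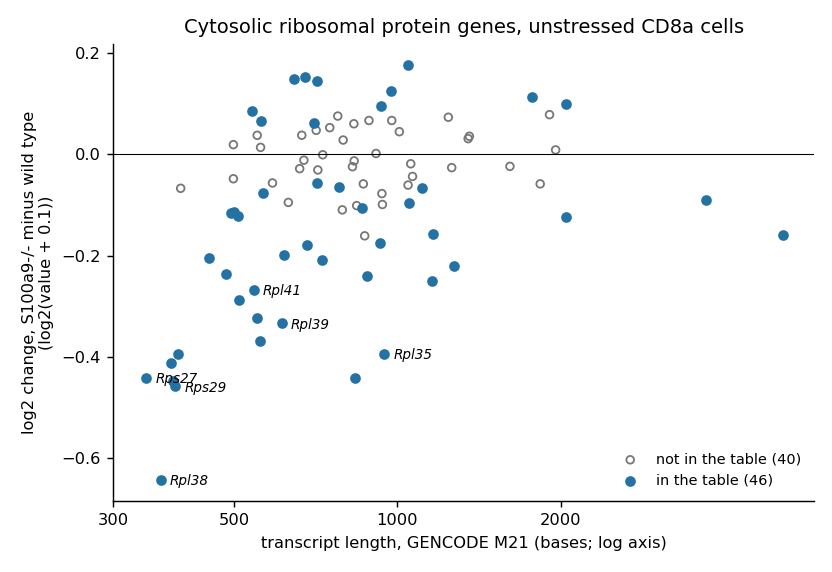
Log2 change between S100a9-/- and wild-type control mice (vertical axis) against transcript length in bases (horizontal axis, log scale) for the 86 ribosomal protein genes in CD8a cells, filled for the 46 in the table. The lowest points, Rpl38 at -0.64 and Rps29 at -0.46, have short transcripts, while Rpl35 at -0.39 lies further right.

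Transcripts of other spleen cells differed between the groups of mice as well. The neutrophil granule gene Lcn2 was 0.0567, 0.0342 and 0.0210 in knockout mice, and was listed at 0 in all 3 wild-type mice. It was called (limma, adjusted p = 0.0463), but not over all listed genes. Ngp, another neutrophil granule gene, was likewise listed at 0 in the wild-type mice and at 0.0634, 0.0493 and 0.00869 in the knockout mice. Of 6 neutrophil markers S100a8, S100a9, Lcn2 and Camp were listed, and they summed to 0.0681 to 0.184 in knockout mice and 0.00618 to 0.0474 in wild-type mice, where Lcn2 and Camp were at 0 in each mouse.

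Of 4 monocyte and dendritic cell markers Lyz2, Cst3 and Ctss were listed, and they summed to 2.04, 1.95 and 1.76 in knockout mice, against 1.66, 1.69 and 1.57 in wild-type mice. The groups did not overlap. Lyz2, the lysozyme of myeloid cells and the one of them in the table, was 0.0958, 0.146 and 0.0879 in knockout mice, against 0.0625, 0.0313 and 0.0105 in wild-type mice. Lyz2 and the protease gene Ctss were higher in every knockout mouse, and Cst3 overlapped. Under stress the sums overlapped, at 1.55 to 1.85 in knockout mice and 1.74 to 1.86 in wild-type mice.

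The haemoglobin genes Hba-a1, Hba-a2, Hbb-bs and Hbb-bt, made by red cells, had the largest uncalled changes above 0, from 1.21 to 1.84. Their sum was 2.77, 2.39 and 0.351 in knockout mice, against 0.850, 0.0769 and 0.0342 in wild-type mice, and wild-type mouse 1 was above knockout mouse 3. The 7 listed B cell markers of 10 summed to 10.1 to 13.1 in knockout mice and 6.71 to 12.4 in wild-type mice. Among them only Igkc, the immunoglobulin kappa constant region, was in the table, at 3.05, 2.38 and 2.88 in knockout mice, against 2.84, 1.11 and 1.17 in wild-type mice (0.79 ± 0.33, adjusted p = 0.0909). The natural killer marker Klre1 overlapped, and neither platelet marker was listed. Knockout mouse 1, which had the highest interferon sum, also had the highest haemoglobin and neutrophil sums. The part of other cells in the changes above was not tested.

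Other mice of both genotypes, after stress, gave the same contrast in animals that the unstressed comparison does not contain. Of the 303 genes 245 (80.9%) had the same direction in the stressed mice as without stress, against 54.7% of the 2548 listed genes outside the table. Stressed knockout and wild-type mice did not overlap for 93 of the 303 (30.7%; 16.1% of all listed genes), 88 of them in the unstressed direction and 5 in the other. The median size of the change was 0.25 without stress, the contrast the genes were listed for, and 0.13 under stress. The authors' own table for the stressed comparison held 58 of the 303 genes, which is 58.6% of its 99.

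The direction held for 24 of the 25 genes called without stress (80.9% of the table). Of the 25, 12 had no overlap under stress (30.7% of the table and 16.1% of all listed genes). The exception was Rpl36-ps12, a processed copy of a ribosomal protein gene, at -0.45 ± 0.08 without stress and 0.17 ± 0.11 under stress. Tested over all 2851 genes in the stressed mice, 5 of the 303 were called (1.65%; 0.21% of all listed genes): mt-Nd3 at -3.83 ± 0.16, Gm28438 at 3.69 ± 0.14, Rab4a at 0.90 ± 0.12, Gm49980 at 0.81 ± 0.13 and Ngp at 0.61 ± 0.10 (limma, adjusted p from 1.73e-08 to 0.0387). Rab4a and Gm49980 thus had nearly the same change in both sets of mice.

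Several of the gene groups above were also read in the stressed mice. Of the 25 interferon genes 24 again lay above 0, with a median of 0.16, and 7 were higher in every stressed knockout mouse (15.5% of the table and 10.7% of all listed genes). Their 38 listed members summed to 66.8, 63.7 and 65.1 in stressed knockout mice, against 59.0, 61.1 and 59.5 in stressed wild-type mice, without overlap (exact p = 0.1). Of the 46 ribosomal genes 41 lay below 0 under stress and 23 were lower in every stressed knockout mouse (15.2% of the table and 5.4% of all listed genes). All 4 haemoglobin genes were higher in every stressed knockout mouse (15.5% of the table and 10.7% of all listed genes). Hba-a1 and Hba-a2 are near-identical copies of each other, and so are Hbb-bs and Hbb-bt. Their sum varied widely, at 15.9, 1.39 and 5.66 in stressed knockout mice, against 0.688, 0.228 and 0.601 in stressed wild-type mice. The 7 effector genes again lay above 0 and the 3 glucocorticoid targets below, with medians of 0.13 and -0.12. None of these, and none of the 5 nuclear respiratory-chain genes, was without overlap under stress (30.7% of the table was). Of the 13 actin genes 9 lay above 0, and 1 was higher in every stressed knockout mouse (15.5% of the table). Cxcr4 and Slc15a2, called without stress, had changes of -0.12 ± 0.23 and -0.04 ± 0.14 under stress, with overlap.

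**Figure D5:**
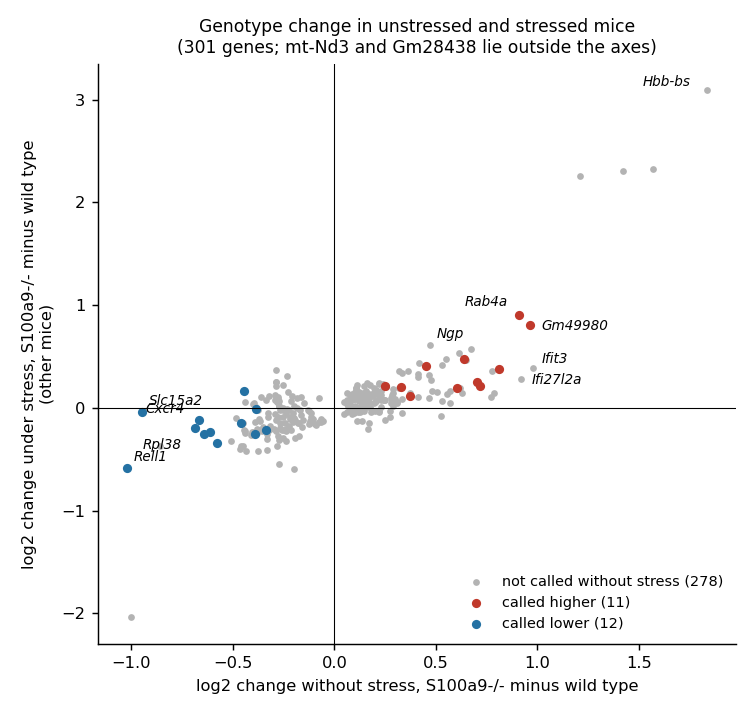
Log2 change between S100a9-/- and wild-type mice without stress (horizontal axis) and under stress (vertical axis, other mice) for 301 of the 303 genes in CD8a cells, called genes in red and blue; mt-Nd3 and Gm28438 lie outside the axes. Most points lie in the lower left and upper right, Rab4a and Gm49980 lie near equal changes, and Slc15a2 is near 0 under stress.

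The difference of the genotype effect between stressed and unstressed mice was tested as an interaction over all 12 mice. It called 0 of 2851 genes (0.0% of all listed genes; limma, smallest adjusted p = 0.129), and 204 had an unadjusted p under 0.05, 43 of these in the table. A difference between the unstressed and stressed changes of Cxcr4 or Slc15a2 was therefore not shown. The smallest adjusted p of a table gene was 0.208, for mt-Nd3, whose stressed wild-type mice had levels of 1.76, 1.48 and 1.07.

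In CD4 cells of the same 6 unstressed mice, 252 of the 303 genes were listed. These averages come from the same animals and are set beside the CD8a values without a count of shared directions. Of the 252, 11 were called over the 2999 listed CD4 genes (4.37%; 0.634% of all listed CD4 genes). Rab4a changed by 0.91 in CD8a cells and 0.84 in CD4 cells, and Gm49980 by 0.97 in CD8a cells and 1.09 in CD4 cells. Rell1 was at -1.02 in CD8a cells and -1.01 in CD4 cells, and Gm19739 at 0.81 in CD8a cells and 0.71 in CD4 cells. These 4 genes were called in CD4 cells too. Cxcr4 was at -0.66 in CD8a cells and -0.80 in CD4 cells, Rpl38 at -0.64 in CD8a cells and -0.69 in CD4 cells, and Slc15a2 at -0.95 in CD8a cells and -0.80 in CD4 cells. Of these, Rpl38 and Slc15a2 were called in CD4 cells and Cxcr4 was not. Alkbh7 was at -0.39 in CD8a cells and -0.19 in CD4 cells, and G0s2 at 0.61 in CD8a cells and 0.29 in CD4 cells, where neither was called.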

How the data were processed

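The authors deposited 8 tables, 4 of CD8a and 4 of CD4 cells, whose values are a signal (mean expression of each gene in the cells of each mouse, per the file headers). Spleens were dissociated, erythrocytes lysed and libraries made with the 10x 3' v2 kit, per the labels' protocols; Cell Ranger 2.1.1 and mm10 come from the submitters' processing notes. Cell filtering, doublet handling and the calling of CD8a cells are not stated in the sources used here. The values are not counts, so depth is unknown and their counting error cannot be read from them.

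Values entered limma 3.58.1 (R 4.3.3; mean-variance trend, two-sided) as log2(level + 0.1), with Benjamini-Hochberg adjustment over the 303 genes or, where said, all listed genes. This pseudocount understates changes of genes at low levels. List sums were compared by two-sided exact permutation. Fits were tested on simulated data. GENCODE M21 gave positions and lengths for 301 of 303 symbols, RefSeq on GRCm38.p6 the promoters, and Biopython 1.88 the alignments. No columns were left unused (0).

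Named genes were S100a9, S100a8, mt-Nd3 and Gm28438; among called genes without overlap, the 10 largest rises and falls at or above the table's median level and the 5 largest below it; the 3 smallest p of lists with 3 or more called genes; and the 8 table genes nearest to S100a9. Others were named after their values were seen. The genes and lists were chosen with earlier results of these data known.

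The mouse numbers of the titles were checked as a pairing: deviations of same-numbered knockout and wild-type mice correlated at -0.0812, -0.0315 and -0.000279, so no block was used. Alternatives (pseudocount, centring, trend, block, low genes removed, weights, all groups, rescaling, left-out mice) are in the closing section. Values of some listed genes are not reported here.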

Additional observations from a re-analysis of the deposited data

Results flagged for a closer look

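Wdr75, which encodes a protein of ribosome assembly, and the predicted gene Gm43813 stood out because every mouse of one genotype lay on one side without stress and on the other side under stress. Wdr75 was 0.331, 0.311 and 0.290 in unstressed knockout mice, against 0.399, 0.369 and 0.402 in unstressed wild-type mice. Under stress it was 0.294, 0.327 and 0.367 in knockout mice, against 0.261, 0.287 and 0.254 in wild-type mice. The log2 change was -0.25 without stress and 0.22 under stress. The interaction of 0.48 ± 0.15 did not pass over all 2851 genes (limma, adjusted p = 0.623). Gm43813 had a log2 change of -0.23 without stress and 0.31 under stress, with an interaction of 0.55 ± 0.18 (limma, adjusted p = 0.623).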

How the results depend on the processing

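Counts of calls depended strongly on the fit. Of the 303 genes 12 were called higher and 13 lower; these became 19 and 18 with a pseudocount of 0.01, 7 and 119 with centred levels, 28 and 35 without the mean-variance trend, 5 and 7 without the lowest 25% of genes, 28 and 34 with sample quality weights, 54 and 50 with all 4 groups in 1 fit, 5 and 4 with the other transcripts rescaled, and 4 to 15 and 4 to 32 with 1 mouse left out. With the mouse number as a replicate block, which the pairing check gives no ground for, they were 6 and 7. Over all listed genes 22 calls became 36 with the block and 9 to 40 with 1 mouse left out. Under stress 5 table genes became 8 with centred levels, 9 with weights, 11 with all 4 groups and 2 to 9 with 1 mouse left out. In CD4 cells 11 became 19 and 2 with pseudocounts of 0.01 and 1, 38 with centred levels, 2 without the trend, 50 with the block and 2 to 43 with 1 mouse left out. The interaction went to 1 call with the block and to 0 or 1 with 1 mouse left out. The causes were not tested.

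Directions held better: 217 to 246 of the 303 genes had the same direction under stress in every alternative run for that count. Centring turned the median change of the actin genes to -0.068, of the naive genes to -0.12, of the T cell identity genes to -0.015 and of the mitochondrially encoded genes to -0.083, and Mbnl1 to -0.11. Depth is unknown, so genes listed at 0 may be present below it, and with 3 mice a group no exact test could give a p under 0.1.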
